A study of Arabidopsis thaliana with 24 samples.

Results

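Transcripts of 10 flowering-time genes were followed over a day in rosettes of jaz4-1 and Col-0 Arabidopsis thaliana. They were the florigen genes FT (AT1G65480) and TSF (AT4G20370), the MADS-box genes SOC1 (AT2G45660), FLC (AT5G10140), SVP (AT2G22540) and FLM (AT1G77080), and the Dof-factor genes CDF1 (AT5G62430), CDF2 (AT5G39660), CDF3 (AT3G47500) and CDF5 (AT1G69570). They were found by locus identifier and made up 10 of the 24503 genes measured by RNA-seq. The line jaz4-1 carries a T-DNA insertion in JAZ4 (SALK_141628C), 1 of the JAZ repressors of jasmonate signalling, and is a single insertion allele of Col-0. Col-0 is the wild type. Plants of both lines were 3 weeks old, grew on soil under a 12 h photoperiod without further treatment, and were cut as whole rosettes at dawn (ZT0), midday (ZT6), dusk (ZT12) and in the night (ZT18), where ZT counts hours from dawn. Each of the 8 groups of line and time had 3 libraries, described as biological replicates, and each library pooled 6 rosettes.

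In Arabidopsis, FT and its close relative TSF are made in companion cells of leaf veins, and the FT protein moves to the shoot apex, where with the bZIP factor FD it raises SOC1 and the floral identity genes. CONSTANS (CO) activates FT late in long days. The CDF proteins bind the CO and FT promoters in the morning and repress both genes, until the blue-light receptor FKF1 with GIGANTEA (GI) marks them for degradation in the afternoon. FLC, SVP and FLM are MADS-box repressors of FT and SOC1, in the pathways of vernalization and of ambient temperature, and Col-0 holds little FLC because its FRIGIDA allele is not functional.

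The 4 CDF genes carried the largest changes over the day, so the 250 bases before their annotated starts are shown (RefSeq, assembly TAIR10.1), each 5′ to 3′ on the strand of the gene. Capitals mark a G-box in CDF2, a CCA1 binding site in CDF5 and, in CDF2 and CDF3, the longest run of bases that any 2 of the 4 windows shared.

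CDF1, chr5:25071112-25071361, reverse strand: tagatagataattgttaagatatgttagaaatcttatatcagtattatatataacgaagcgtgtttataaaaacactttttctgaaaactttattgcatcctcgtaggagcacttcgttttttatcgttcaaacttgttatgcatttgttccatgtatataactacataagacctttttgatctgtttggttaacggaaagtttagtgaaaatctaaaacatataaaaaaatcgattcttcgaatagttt

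CDF2, chr5:15878448-15878697, forward strand: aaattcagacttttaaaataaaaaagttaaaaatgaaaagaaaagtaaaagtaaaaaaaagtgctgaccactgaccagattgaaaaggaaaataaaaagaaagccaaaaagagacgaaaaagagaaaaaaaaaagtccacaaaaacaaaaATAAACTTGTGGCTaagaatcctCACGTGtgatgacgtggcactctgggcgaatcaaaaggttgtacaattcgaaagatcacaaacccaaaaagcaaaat

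CDF3, chr3:17506125-17506374, reverse strand: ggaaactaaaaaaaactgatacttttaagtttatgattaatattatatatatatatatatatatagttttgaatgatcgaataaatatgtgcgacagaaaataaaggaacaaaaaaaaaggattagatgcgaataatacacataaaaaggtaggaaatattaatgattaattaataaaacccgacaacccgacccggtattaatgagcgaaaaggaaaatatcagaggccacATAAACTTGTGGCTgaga

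CDF5, chr1:26163716-26163965, reverse strand: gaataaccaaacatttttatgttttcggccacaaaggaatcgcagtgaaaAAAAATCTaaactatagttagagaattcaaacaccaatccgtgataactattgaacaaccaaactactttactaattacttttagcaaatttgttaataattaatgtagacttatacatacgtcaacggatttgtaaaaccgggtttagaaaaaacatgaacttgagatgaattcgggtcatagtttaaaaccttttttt

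Motifs were searched on both strands from 250 bases before to 50 after the start, in the members and in 27438 protein-coding genes. The evening element (AAAATATCT), a clock motif, was in 2.82% of all windows and in none of the 4 CDF windows. CDF2 held a G-box (CACGTG), which light and clock factors bind, 77 bases before its start (7.68% of all windows hold one), and CDF5 held a binding site of the clock factor CCA1 (AAAAATCT) 200 bases before its start (7.88%). CDF2 and CDF3 shared the 14 bases ATAAACTTGTGGCT, which begin 100 bases before the start of CDF2 and 18 before that of CDF3. This run was in 2 of the 27438 windows (0.00729%), which are those of CDF2 and CDF3, and it was looked for after the windows had been seen. It overlaps a CO response element (CCACA, reverse strand) in both, a motif of 33.6% of all windows. The Dof site AAAG, which Dof factors such as the CDFs bind, was in 99.1% of all windows and so sets no window apart. CDF2 held 19 of them, CDF1 7, CDF3 6 and CDF5 5. These matches are descriptions of sequence.

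Library totals ranged from 16832226 to 22644745 reads (median 20068902), with 18959 to 21863 genes detected, the fewest in Col-0 at ZT0 replicate 2 and jaz4-1 at ZT6 replicate 2. JAZ4 had 31 reads over the 12 jaz4-1 libraries and 93 over the 12 Col-0 libraries (exact permutation p 0.0177, 2-sided). By time from ZT0 to ZT18 these were 6, 12, 7 and 6 in jaz4-1 and 17, 15, 33 and 28 in Col-0, so JAZ4 hardly separated the lines at ZT6. Green leaf markers (5 genes) summed to between 27020 and 57000 CPM in jaz4-1 libraries and between 30750 and 60040 CPM in Col-0 libraries. Floral organ markers (6 genes) stayed between 0.675 and 1.86 CPM in jaz4-1 and between 0.178 and 2.41 CPM in Col-0, and 5 root markers at 10.2 CPM or less in every library. In whole rosettes, fewer cells of a type and less RNA per cell cannot be told apart. Values per library below are reads rescaled with 1 set of size factors over all 24 libraries. Differences between the lines were fitted by limma on the authors' deposited values, which were scaled within each time, and steps between times on the rescaled reads. Both used log2 of the value plus 1, a scale on which low genes appear to change less than they did, and a gene was called at a Benjamini-Hochberg adjusted p under 0.05 over 19614 genes. Each limma SE comes from 1 variance per gene pooled over all 8 groups, so it is not the spread at the time named. Of the 10 genes, 8 passed the filter on low counts, while FT and TSF did not.

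The clearest pattern was the day rhythm, which both lines showed. In jaz4-1, 7 of the 8 tested genes changed over time by limma's F test, where 53.5% of all genes did. In Col-0 the same count was 7 of 8, where 49.1% of all genes did. FLC was the exception in both lines (adjusted p 0.333 in jaz4-1 and 0.966 in Col-0). Between the lines, 0 of the 8 genes were called: the background share of all genes called was 0.923% at ZT0, 2.95% for ZT6, 0.321% for ZT12 and 0.138% for ZT18. Nor was any called on average over the times (4.68%) or in the dependence of the difference on time (0.194%). A count of 0 of 8 lies near each of these shares. At an unadjusted p under 0.05 the counts were 1 of 8 at ZT0 (13% of all genes), 1 at ZT6 (20.4%), 0 at ZT12 (4.88%), 2 at ZT18 (3.03%), 2 on average (20.9%) and 1 for the dependence on time (6.82%). No gene of the 8 was called by edgeR or DESeq2 in any of these comparisons. The steps between neighbouring times held the calls: for ZT6 against ZT0 they were 6 of 8 in jaz4-1 (42.5% of all genes) and 5 in Col-0 (40.2%), and for ZT12 against ZT6 they were 3 in jaz4-1 (19%) and 3 in Col-0 (11.7%). For ZT18 against ZT12 they were 5 in jaz4-1 (13.1%) and 4 in Col-0 (15.4%), and for ZT0 against ZT18 they were 4 in jaz4-1 (26.9%) and 4 in Col-0 (22.7%).

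CDF1, CDF2, CDF3 and CDF5 encode Dof repressors of CO and FT. All were high in the morning and low in the night. CDF1 had 1409, 1371 and 2054 rescaled reads in the jaz4-1 libraries at ZT0 and 1024, 901 and 833 at ZT6. At dusk (ZT12) jaz4-1 had 177, 184 and 196, and at ZT18 40.3, 46.03 and 66.1. In Col-0 libraries CDF1 had 1006, 1170 and 1420 at ZT0 and 748, 901 and 675 at ZT6. At dusk Col-0 had 204, 178 and 180, and at ZT18 53.8, 39.7 and 49.1. The 3 libraries of each time stood apart from those of every other time in both lines. CDF1 was lower at ZT6 than at ZT0 by a log2 difference of -0.79 ± 0.18 in jaz4-1 (SE; limma adjusted p 0.00143) and -0.62 ± 0.18 in Col-0 (adjusted p 0.00963). The Col-0 call was lost without Col-0 at ZT0 replicate 3 (adjusted p 0.0641) or at ZT6 replicate 3 (0.0538). The fall at dusk was steeper, with -2.30 ± 0.18 in jaz4-1 and -2.04 ± 0.18 in Col-0 for ZT12 against ZT6, and -1.88 and -1.96 followed for ZT18 against ZT12. The rise of the late night, ZT0 against ZT18, was 4.97 ± 0.18 in jaz4-1 and 4.62 ± 0.18 in Col-0 (adjusted p 2.55e-15 and 9.33e-15).

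CDF2 lost its transcript earlier in the day. At ZT0 it had 3584, 3102 and 4033 rescaled reads in jaz4-1 and 2378, 2812 and 3312 in Col-0. At ZT6 it had 119, 115 and 116 in jaz4-1 and 100.2, 94.97 and 126 in Col-0. The step of ZT6 against ZT0 was -4.92 ± 0.31 in jaz4-1 and -4.71 ± 0.31 in Col-0 (adjusted p 4.20e-11 and 1.14e-10). The 95% interval of that step in jaz4-1 ran from -5.57 to -4.27 for CDF2 and from -1.17 to -0.41 for CDF1, so the intervals of the genes did not meet. CDF2 then had 84.7, 120.3 and 106 in jaz4-1 and 77.9, 77.8 and 87.3 in Col-0 at ZT12, and the step of ZT12 against ZT6 was not called in jaz4-1 (-0.18 ± 0.31) or Col-0 (-0.39 ± 0.31). At ZT18 it had 42.99, 40.4 and 51.2 in jaz4-1 and 11.7, 21.6 and 54.5 in Col-0. The fall of ZT18 against ZT12 passed the test in jaz4-1 (-1.18 ± 0.31, adjusted p 0.0135) and in Col-0 (-1.71 ± 0.31, adjusted p 0.000572), the jaz4-1 call being lost without jaz4-1 at ZT12 replicate 2 (adjusted p 0.0662) or at ZT18 replicate 1 (0.0519). The Col-0 libraries at ZT18 lay on either side of those of jaz4-1, with an SD of 22.4 on a mean of 29.2. The ZT0 mean was 79.7 times the ZT18 mean in jaz4-1 and 97.0 times in Col-0.

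CDF3 stayed high until midday. It had 1571, 1459 and 2239 rescaled reads in jaz4-1 and 1086, 1351 and 1271 in Col-0 at ZT0, and 1338, 1347 and 900 in jaz4-1 and 1719, 1624 and 1129 in Col-0 at ZT6. The mean was highest at ZT0 in jaz4-1 and at ZT6 in Col-0, but the step of ZT6 against ZT0 was called in neither jaz4-1 (-0.55 ± 0.29, adjusted p 0.139) nor Col-0 (0.25 ± 0.29, adjusted p 0.524). CDF3 had 409, 270.1 and 214 in jaz4-1 and 429.8, 440 and 353 in Col-0 at ZT12, and 51.9, 90.2 and 64.0 in jaz4-1 and 22.4, 53.5 and 52.7 in Col-0 at ZT18. Both later steps were falls, with -2.03 ± 0.29 in jaz4-1 and -1.85 ± 0.29 in Col-0 for ZT12 against ZT6, and -2.08 ± 0.29 and -3.31 ± 0.29 for ZT18 against ZT12.

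CDF5 was the low member of the group. It had 60, 63 and 43 raw reads in the jaz4-1 libraries and 31, 7 and 31 in the Col-0 libraries at ZT0, and 1 to 16 reads in every library of the later times. The late-night rise was called in jaz4-1 (3.83 ± 0.69, adjusted p 0.00022) and in Col-0 (2.54 ± 0.69, adjusted p 0.00991). The libraries of these times overlapped in Col-0 and did not in jaz4-1. In Col-0 the call was lost without ZT0 replicate 3 (adjusted p 0.0547) or ZT18 replicate 2 (0.0727). The morning fall of ZT6 against ZT0 was called in jaz4-1 alone (-2.24 ± 0.69, adjusted p 0.0118, against -0.72 ± 0.69 in Col-0), and was lost without jaz4-1 at ZT6 replicate 1 (adjusted p 0.0695). The F test of whether the line difference depends on time did not pass for CDF5 (adjusted p 0.948). An antisense long non-coding RNA gene, AT1G69572, overlaps CDF5 over 1241 bases in the RefSeq annotation. The sources used here do not state strandedness of the libraries, and reads of this pair cannot be told apart.

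**Figure D1:**
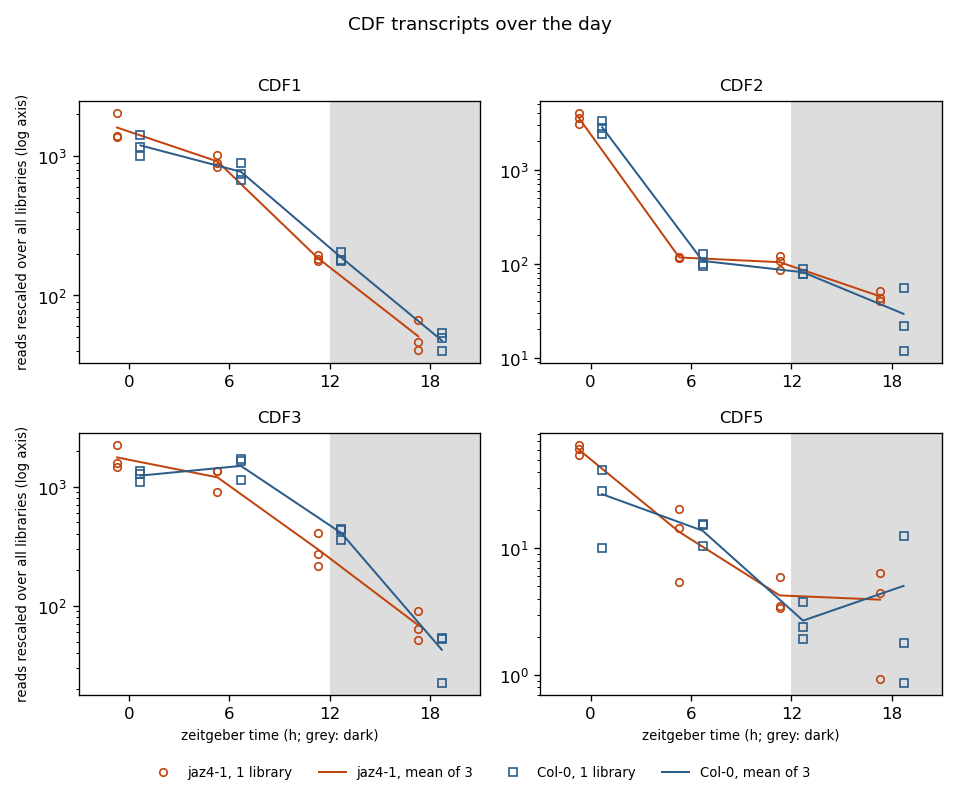
CDF1, CDF2, CDF3 and CDF5 in reads rescaled over all 24 libraries (log axis) against zeitgeber time in hours. Points are libraries, lines join the means of 3, jaz4-1 is left of Col-0 at each time and grey marks darkness. All 4 genes are lower at ZT18 than at ZT0 in both lines. By ZT6 the CDF2 means are 116.5 in jaz4-1 and 107 in Col-0, while those of CDF1 are 919.5 in jaz4-1 and 775 in Col-0.

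Per kilobase of annotated exon, CDF2 was the highest CDF gene at ZT0 with 1476 rescaled reads in jaz4-1 and 1170 in Col-0, before CDF1 with 1130 and 840, and CDF3 with 924 and 650. CDF5 had 31.1 in jaz4-1 and 13.9 in Col-0. At ZT6 the order of the level per kilobase was changed: CDF1 had 645 in jaz4-1 and 543 in Col-0, CDF3 had 629 and 784, and CDF2 had 48.1 and 44.2. Over the 8 group means of log2(rescaled reads + 1), Pearson r was 0.976 between CDF1 and CDF3, 0.803 between CDF1 and CDF2 and 0.721 between CDF2 and CDF3. These points share the libraries and their scaling, so the r values only describe the profiles.

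No CDF gene was called between the lines, which does not show that they were alike: the 95% interval of CDF5 at ZT0 ran from -0.12 to 2.78 on the log2 scale. At ZT0 every CDF gene had the higher mean in jaz4-1. The log2 differences were 0.41 ± 0.18 for CDF1, 0.34 ± 0.31 for CDF2, 0.48 ± 0.30 for CDF3 and 1.33 ± 0.70 for CDF5, with limma adjusted p between 0.338 and 0.687. The libraries of the lines did not overlap for CDF3 and CDF5, that is for 2 of the 8 tested genes, and 11.4% of all genes did not overlap at ZT0. CDF1 alone of these had an unadjusted p under 0.05 at ZT0 (0.0353), as did 13% of all genes. The difference of CDF1 was 0.22 without jaz4-1 at ZT0 replicate 3, and that of CDF5 was 0.77 without Col-0 at ZT0 replicate 2. Beside these values, companion cell markers (6 genes, all detected) summed to between 337 and 392 CPM in jaz4-1 and between 195 and 287 CPM in Col-0 at ZT0. Of these 6 markers 1 was called at ZT0, where 0.923% of all genes were. It was the sucrose transporter gene SUC2, higher in jaz4-1 (0.76 ± 0.18, limma adjusted p 0.0461) with overlapping libraries. The SUC2 call was lost with edgeR (adjusted p 0.0838), without the filter (0.0622) and with the ZT0 libraries alone (0.674). It was also lost in 20 of 24 fits without 1 library, with adjusted p up to 0.229. On average over the times, the sucrose exporter genes SWEET11 (0.38 ± 0.10, adjusted p 0.023) and SWEET12 (0.52 ± 0.15, adjusted p 0.0468) of the same list rose in jaz4-1, where 4.68% of all genes were called. All 6 markers had positive differences on average and at ZT0. By time, 2 of the 6 were negative at ZT6, 4 at ZT12 (median -0.05) and 1 at ZT18. The SWEET11 call was lost in 3 of 24 fits without 1 library (adjusted p up to 0.0527) and that of SWEET12 in 16 (up to 0.0953). The part of companion cells in the CDF values, at ZT0 and on average, was not tested.

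On average over the day, CDF2 had the largest CDF difference after CDF5. It was 0.41 ± 0.16 for CDF2 (adjusted p 0.128), 0.43 ± 0.35 for CDF5 (0.506), 0.18 ± 0.09 for CDF1 (0.280) and 0.10 ± 0.15 for CDF3 (0.752). At ZT18 the differences were 0.86 ± 0.31 for CDF2 (unadjusted p 0.0112) and 0.73 ± 0.30 for CDF3 (unadjusted p 0.0218), both with an adjusted p of 1, and 3.03% of all genes had an unadjusted p under 0.05 there. Both values changed when single Col-0 libraries were left out, that of CDF2 in either direction. Without Col-0 at ZT18 replicate 3, where CDF2 had 54.5 rescaled reads, the difference of CDF2 was called at ZT18 (1.44, adjusted p 0.00407) and on average (0.56, adjusted p 0.00314). Without Col-0 at ZT18 replicate 1 it was 0.37 at ZT18 and 0.29 on average, and that of CDF3 at ZT18 was 0.33. CDF3 was higher in jaz4-1 at ZT0 and ZT18 and lower at ZT6 (-0.34 ± 0.30) and ZT12 (-0.50 ± 0.30), and the F test of this dependence on time did not pass (unadjusted p 0.0181, adjusted p 0.567). On the linear scale, an exact permutation test within times gave p 0.0362 for CDF1, 0.0566 for CDF5, 0.101 for CDF2 and 0.767 for CDF3, 2-sided and not adjusted for the 10 genes.

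The florigen genes themselves were at the detection floor in both lines. FT had 11 reads over the 12 jaz4-1 libraries and 17 over the 12 Col-0 libraries. In jaz4-1 no FT read was found in the 3 libraries of ZT0 or the 3 of ZT6, while those of ZT12 held 7, 1 and 1 and those of ZT18 held 0, 2 and 0. In Col-0 the ZT0 libraries held 4, 3 and 0 FT reads and those of ZT6 held none, while those of ZT12 held 5, 4 and 0 and those of ZT18 held 0, 0 and 1. A count of 0 over the 3 libraries of a group allows up to 3 reads, or 0.0483 CPM in jaz4-1 at ZT0, 0.0527 CPM in jaz4-1 at ZT6 and 0.0479 CPM in Col-0 at ZT6, counting error only. TSF reached 8 reads over the jaz4-1 libraries and 13 over those of Col-0, with 9 of 12 jaz4-1 libraries and 6 of 12 Col-0 libraries at 0 and no more than 6 in any library. The mean over all times was 0.789 rescaled reads in jaz4-1 and 1.32 in Col-0 for FT (exact permutation p 0.408, 2-sided, labels permuted within times), and 0.621 in jaz4-1 and 1.05 in Col-0 for TSF (exact permutation p 0.456). No difference of FT or TSF between the lines was detected in these few reads.

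CO, the activator of FT, was low and highest in the night. It had 62.7, 61.1 and 64.0 rescaled reads in jaz4-1 and 46.6, 46.6 and 48.2 in Col-0 at ZT18. The groups did not overlap there, as for 10.2% of all genes, and the limma difference was 0.40 ± 0.64 (adjusted p 1), with the SE pooled over all 8 groups. At ZT6 its count was 8 reads or fewer in each jaz4-1 library, against 3 to 12 in those of Col-0. GI and FKF1 are given as the partners that remove the CDF proteins and were picked after their values were seen. GI had 2139, 2369 and 1895 rescaled reads in jaz4-1 and 1408, 1630 and 1340 in Col-0 at ZT6, a difference of 0.53 ± 0.73 (adjusted p 0.712). The lines did not overlap there, as for 26.8% of all genes. The pooled SE takes in the ZT0 and ZT18 groups, where no GI mean passed 5.695 rescaled reads. It is therefore not the spread of GI at ZT6. FKF1 was highest at ZT12, with 1157, 988 and 782 in jaz4-1 and 971, 1204 and 931 in Col-0.

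**Figure D2:**
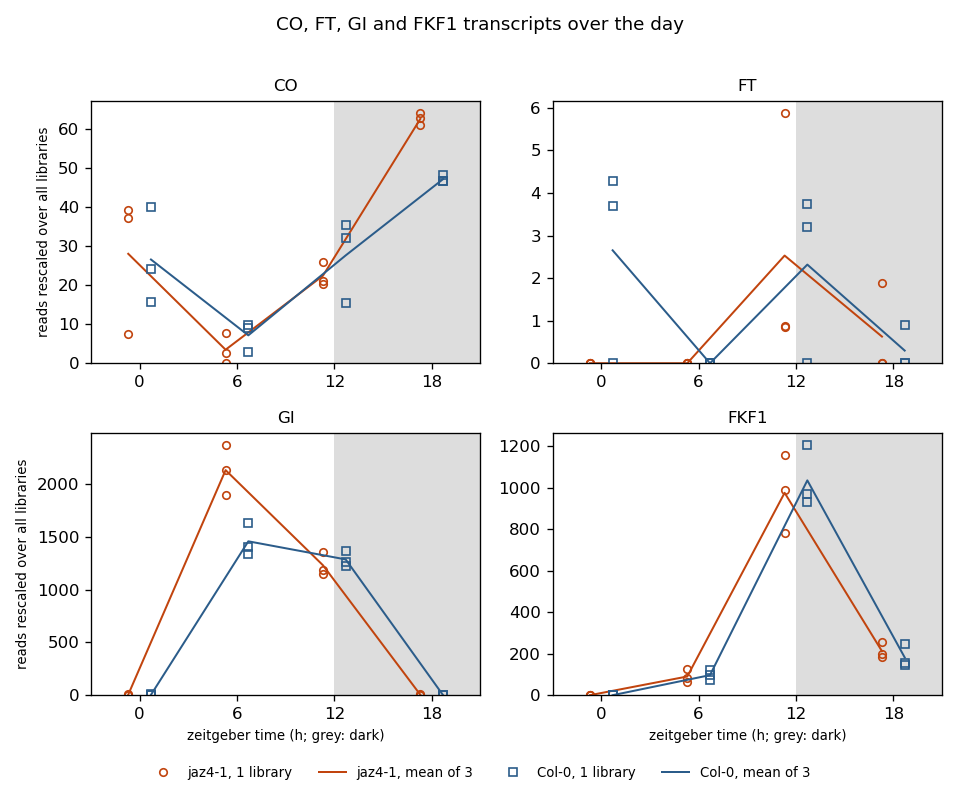
CO, FT, GI and FKF1 in rescaled reads (linear axes from 0) against zeitgeber time in hours, with libraries as points and means of 3 as lines, jaz4-1 left of Col-0. FT stays under 6 rescaled reads in every library, while GI and FKF1 peak at ZT6 and ZT12 in both lines.

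SOC1, the MADS-box activator downstream of FT, was highest at midday. At ZT6 it had 646, 599 and 558 rescaled reads in jaz4-1 and 472, 430.2 and 580.2 in Col-0. At ZT0 it had 268, 232 and 496 in jaz4-1 and 328, 221 and 212 in Col-0. The lines overlapped at both times, while within each line the ZT6 libraries lay above those of ZT0. ZT6 exceeded ZT0 by 0.93 ± 0.23 in jaz4-1 and 0.98 ± 0.23 in Col-0 (adjusted p 0.0022 and 0.00166). ZT12 lay below ZT6 by a log2 difference of -1.61 ± 0.23 in jaz4-1 and -1.17 ± 0.23 in Col-0, and its ZT12 mean was 197 ± 20.7 for jaz4-1 against 219 ± 28.3 for Col-0 (SD, n = 3). The steps of ZT18 against ZT12 and ZT0 against ZT18 were not called in either line. SOC1 differed between the lines by 0.33 ± 0.23 at ZT0, 0.27 ± 0.23 at ZT6 and 0.11 ± 0.11 on average (adjusted p 0.565, 0.516 and 0.600).

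SVP and FLM, which encode partners in the repression of FT and SOC1 at ambient temperature, ran in opposite phase. SVP averaged 1164 ± 232, 2002 ± 359, 1626 ± 202 and 1132 ± 115 rescaled reads at ZT0, ZT6, ZT12 and ZT18 in jaz4-1 (SD, n = 3), and 1255 ± 241, 2064 ± 107, 1511 ± 86.1 and 1192 ± 179 in Col-0. FLM averaged 764 ± 189, 501 ± 70.6, 509 ± 27.8 and 741 ± 50.4 in jaz4-1, and 888 ± 122, 538 ± 64.0, 523 ± 29.04 and 753 ± 66.1 in Col-0. SVP was thus high in the light and FLM around dawn and in the night, and r over the 8 group means was -0.850. In the morning step of ZT6 against ZT0, SVP rose by 0.78 ± 0.16 in jaz4-1 and 0.74 ± 0.16 in Col-0, and FLM fell by 0.59 in jaz4-1 and by 0.72 in Col-0 (SE 0.15). In ZT18 against ZT12, FLM rose by 0.54 ± 0.15 in jaz4-1 and 0.52 ± 0.15 in Col-0 (adjusted p 0.0162 and 0.0178). SVP fell there in jaz4-1 (-0.52 ± 0.16, adjusted p 0.0378) and was not called in Col-0 (-0.35 ± 0.16, adjusted p 0.154), with an adjusted p of 0.979 for dependence of the line difference on time. The night calls were lost in some fits without 1 library: in jaz4-1 SVP lost its call in 5 of 24 (adjusted p up to 0.157) and FLM in 3 (up to 0.0800), and in Col-0 FLM in 2 (up to 0.0958). Over these fits the step ranged from -0.62 to -0.44 for SVP in jaz4-1. For FLM it ranged from 0.50 to 0.59 in jaz4-1 and from 0.46 to 0.58 in Col-0. The average line differences were -0.04 ± 0.08 for SVP and -0.11 ± 0.07 for FLM, with 95% intervals of -0.21 to 0.13 and -0.26 to 0.05. FLM is listed as MAF1 in the RefSeq names, and reads of its relatives MAF2 to MAF5 may be shared with it.

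**Figure D3:**
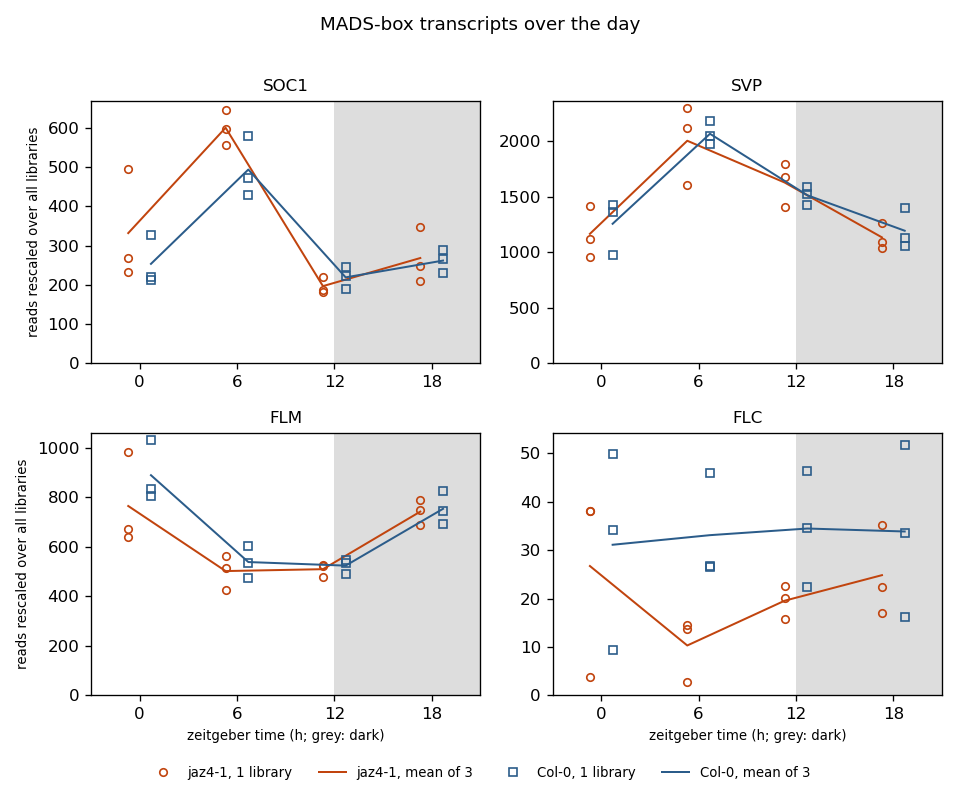
SOC1, SVP, FLM and FLC in rescaled reads (linear axes from 0) against zeitgeber time in hours, with libraries as points and means of 3 as lines, jaz4-1 left of Col-0. SOC1 and SVP peak at ZT6, FLM is lowest at ZT6 and ZT12, and FLC in Col-0 keeps a mean between 31.1 and 34.5.

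FLC, the vernalization-responsive repressor, was low in both lines and had the lower mean in jaz4-1 at every time. It had 250 reads over the 12 jaz4-1 libraries and 429 over the 12 Col-0 libraries. At ZT0 it had 38.2, 38.2 and 3.79 rescaled reads in jaz4-1 and 34.1, 49.9 and 9.39 in Col-0. At ZT6 it had 2.70, 13.7 and 14.5 in jaz4-1 and 26.7, 26.6 and 46 in Col-0. The lines overlapped at ZT0 and did not at ZT6, where 26.8% of all genes did not overlap and FLC was the 1 of the 8 genes to do so. At ZT12 it had 22.6, 20.2 and 15.8 in jaz4-1 and 46.4, 22.5 and 34.6 in Col-0, and at ZT18 22.4, 16.9 and 35.2 in jaz4-1 and 16.1, 33.7 and 51.8 in Col-0. The lines overlapped at ZT18, and at ZT12 by the highest jaz4-1 and the lowest Col-0 library alone.

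The difference of FLC at ZT6 was -1.81 ± 0.71 (95% interval -3.29 to -0.33) and did not pass (unadjusted p 0.0189, adjusted p 0.158). Without jaz4-1 at ZT6 replicate 1 it was -1.14 (adjusted p 0.436). On average it was -0.84 ± 0.36 (unadjusted p 0.0284, adjusted p 0.181). At the other times it was -0.44 at ZT0, -0.75 at ZT12 and -0.35 at ZT18. The exact permutation test within times on rescaled reads gave p 0.0308 (means 20.3 in jaz4-1 and 33.1 in Col-0, 2-sided, not adjusted). In the authors' deposited table, FLC at ZT6 had a log2 fold change of -0.70 with an adjusted p of 0.121, the lowest adjusted p of the 10 genes at any time. Deposited fold changes lay nearer 0 than the limma differences for CDF2 at ZT18 too (0.11 against 0.86). The sizes are therefore not on 1 scale.

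Shoot apex markers are given beside FLC. The 6 markers (STM, WUS, CLV3, KNAT1, KNAT2 and CUC2) summed to between 3.81 and 15.2 CPM in jaz4-1 and between 15.4 and 30.2 CPM in Col-0 at ZT0, and to between 3.92 and 15.6 CPM in jaz4-1 and between 16.8 and 25.1 CPM in Col-0 at ZT6. At ZT12 they summed to between 19.6 and 25.5 CPM in jaz4-1 and between 19.4 and 30.5 CPM in Col-0, and at ZT18 to between 12.98 and 29.8 CPM in jaz4-1 and between 6.55 and 33.6 CPM in Col-0. WUS, which marks the stem cell organizer, had 0 reads in every jaz4-1 library but not in every Col-0 library. It did not pass the filter on low counts in these data, so its difference between the lines was not tested. Of the 4 apex markers tested, 0 were called at any time, with a median difference of -1.03 at ZT0, -1.42 at ZT6, -0.04 at ZT12 and -0.02 at ZT18. The 3 libraries lowest in these markers were jaz4-1 at ZT0 replicate 3 (3.81 CPM, 3 FLC reads), jaz4-1 at ZT6 replicate 1 (3.92 CPM, 2 FLC reads) and Col-0 at ZT18 replicate 1 (6.55 CPM, 18 FLC reads). Each had the fewest FLC reads of its group. Without these 3 libraries, a setting chosen after seeing the data, the FLC difference was -1.14 at ZT6 (adjusted p 0.239) and -0.53 on average (adjusted p 0.245). The ZT6 value was the same without jaz4-1 at ZT6 replicate 1 alone. Leaving out the jaz4-1 library with the fewest FLC reads makes the ZT6 difference smaller whatever its markers, so this fit cannot tell the 2 apart. The part of shoot apex tissue in the FLC values was not tested.

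**Figure D4:**
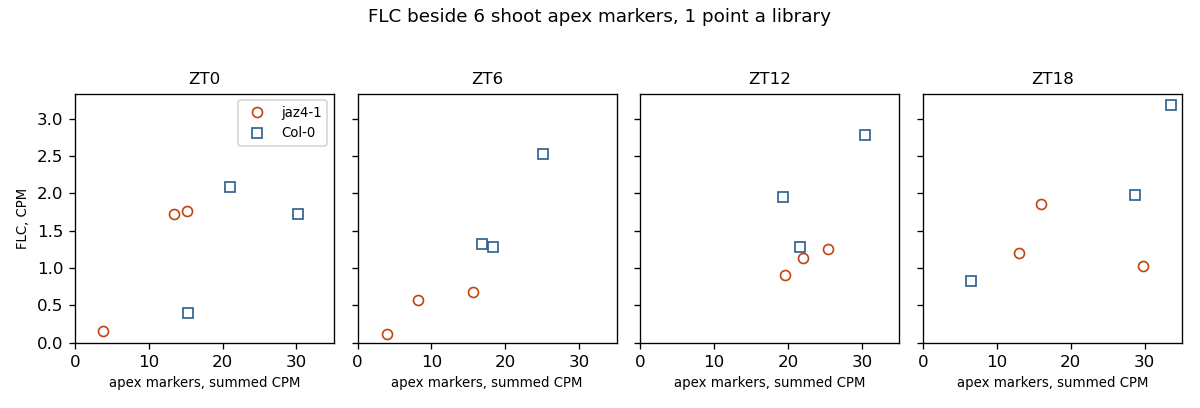
FLC (CPM) against the summed CPM of 6 shoot apex markers, 1 point a library and 1 panel a time, jaz4-1 circles and Col-0 squares. At ZT6 the 3 jaz4-1 libraries lie below the 3 Col-0 libraries on both axes, and the lowest FLC values lie at the lowest marker sums at ZT0, ZT6 and ZT18.

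FLC overlaps an antisense long non-coding RNA gene, AT5G01675, along 6067 bases. The table gave that gene 10 reads in the 24 libraries together, and without strand its reads and those of FLC cannot be told apart. The FLC window holds an evening element 59 bases before the start and a G-box 146 before it, and FLC is shown because it is the 1 tested member without a called change over time.

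FLC, chr5:3179449-3179698, reverse strand: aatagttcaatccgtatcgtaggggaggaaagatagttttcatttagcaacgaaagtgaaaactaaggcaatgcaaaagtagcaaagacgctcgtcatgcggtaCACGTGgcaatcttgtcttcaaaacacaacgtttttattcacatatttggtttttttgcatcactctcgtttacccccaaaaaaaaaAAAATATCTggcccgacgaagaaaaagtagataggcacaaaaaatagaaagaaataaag

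Genes around the 10 members were taken from 4 lists. Of 24 tested photoperiod genes and FT activators, 0 were called between the lines at any time or on average by limma, with 4, 5, 1 and 0 at an unadjusted p under 0.05 at ZT0, ZT6, ZT12 and ZT18. The shares of all genes under that p were 13%, 20.4%, 4.88% and 3.03%, and these counts lie near them. Their median difference was 0.20 at ZT0 (all genes 0.01) and 0.02 at ZT6 (all genes -0.04). Of 18 FLC regulators, 1 was called at ZT6, where 2.95% of all genes were, and none at the other times. It was FPA, an RNA-binding protein of the autonomous pathway that keeps FLC low, which rose by 0.53 ± 0.14 (adjusted p 0.0327). FPA had 959, 1144 and 897 rescaled reads in jaz4-1 and 723, 730.3 and 594 in Col-0 at ZT6, without overlap. Its call was lost with the ZT6 libraries alone (adjusted p 0.0735) and in 5 of 24 fits without 1 library (up to 0.196). Of 8 tested targets and partners at the apex, 0 were called by limma, with 2, 2, 1 and 0 at an unadjusted p under 0.05 from ZT0 to ZT18, beside the same shares of all genes.

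Of 15 tested FT repressors, 2 were called at ZT6 in opposite directions, where 2.95% of all genes were called. Of the 15, 12 had negative and 3 positive differences at ZT6, with a median of -0.33 (all genes -0.04). Negative differences numbered 12 at ZT0, 8 at ZT12 and 8 at ZT18. From ZT0 to ZT18, 0, 5, 2 and 1 had an unadjusted p under 0.05 by limma, beside the shares of all genes given above. TEM2, an AP2/B3 factor that represses FT, had 3282, 3991 and 2748 rescaled reads in jaz4-1 and 1333, 1533 and 1510 in Col-0 at ZT6, and 132, 201 and 403 in jaz4-1 and 30.7, 61.8 and 29.8 in Col-0 at ZT12. The lines did not overlap at either time, and TEM2 rose by 1.16 ± 0.32 at ZT6 (adjusted p 0.0495) and 2.49 ± 0.32 at ZT12 (adjusted p 0.000286). With only the ZT12 libraries fitted the ZT12 call was lost (adjusted p 0.217), and the ZT6 call was lost in 16 of 24 fits without 1 library (up to 0.225). AGL15, a MADS-box repressor of FT and SOC1, had 12.1, 1.37 and 32.8 rescaled reads in jaz4-1 and 44.5, 39.9 and 46.8 in Col-0 at ZT6, and fell there by 2.13 on the log2 scale (SE 0.57, adjusted p 0.0406). Its value was -1.10 (adjusted p 0.236) without jaz4-1 at ZT6 replicate 2, and its call was lost with edgeR's quasi-likelihood test (adjusted p 0.134) and in 10 of 24 fits without 1 library. FT itself had 0 reads in the 6 libraries of ZT6.

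**Figure D5:**
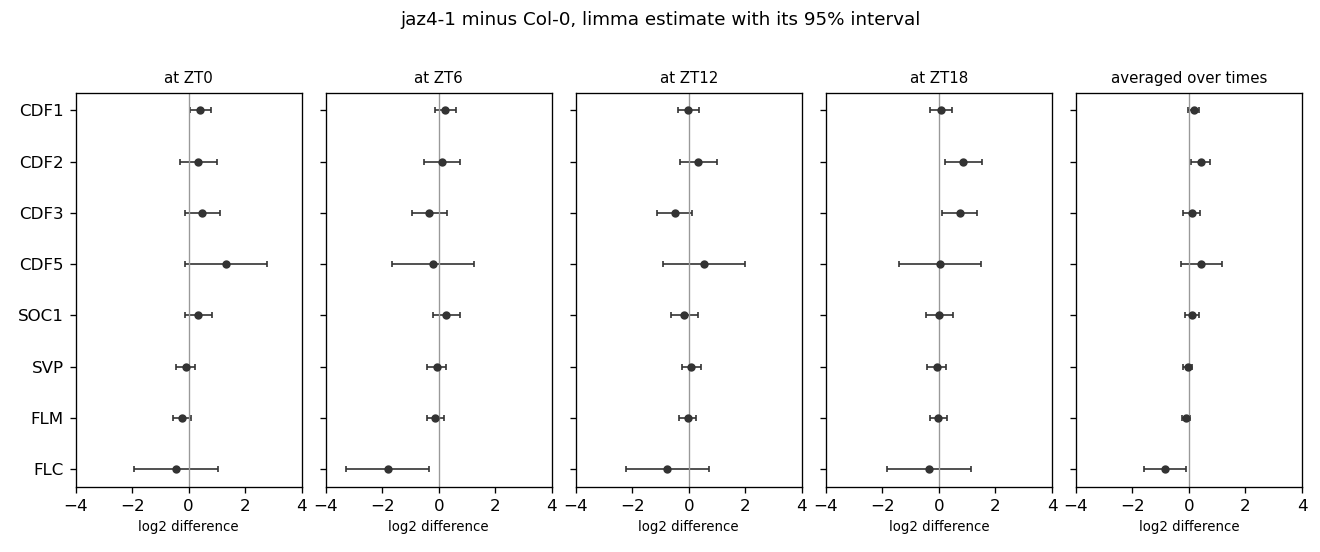
Log2 difference, jaz4-1 minus Col-0, of the 8 tested genes with 95% intervals from limma (on log2 of the deposited value + 1), 1 panel for each time and 1 for the average. The CDF genes lie right of 0 at ZT0, FLC lies left of 0 in every panel, and no difference was called.

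By profile over the 8 group means of log2(rescaled reads + 1), the nearest of 17466 genes with at least 1 CPM were found for each member that reached 1 CPM, with the members themselves left out of the ranking. For CDF1 they were AT3G55580 (r 0.996), AT5G06980 (0.995) and the B-box gene BBX18 (0.993). For CDF2 they were AT3G62260 (0.991), AT5G17900 (0.988) and AT3G49601 (0.987). For CDF3 they were STO (0.979), ACP4 (0.977) and the light-harvesting gene LHCB2.2 (0.97). For SOC1 they were AT3G46370 (0.984), AT1G33760 (0.977) and AT2G43500 (0.972), and for SVP AT3G05640 (0.988), AT4G26600 (0.985) and CYP71B26 (0.983). For FLM they were AT2G44525 (0.996), RAB8 (0.993) and AT1G47740 (0.985), and for FLC AT4G23720 (0.980), GAD4 (0.974) and AT4G06701 (0.974). Each r describes 8 points that share libraries and scaling.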

How the data were processed

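RNA-seq of 24 libraries (8 groups of 3) was analysed, and the 10 members and the gene lists were chosen with earlier results of these data known. Per the submitters' processing notes, the authors used HISAT2, featureCounts and TAIR10, without versions. The deposited signal columns are headed RPKM, but 100% of their positive values lie within 0.001 reads of whole reads divided by 1 size factor per library, which equals a median-of-ratios factor within each time (largest relative distance 3.08e-11) and differs by 6.89 to 17.3% from factors over all libraries. The deposited table also holds the authors' log2 fold changes and the authors' p-values and adjusted p-values for the lines at each time.

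Reads were recovered from these values and rescaled with factors over all 24 libraries for levels and steps between times; line differences used the deposited values. limma 3.58.1 (trend, robust, R 4.3.3) was fitted to log2(value + 1) over 8 groups, with 16 residual degrees of freedom (median prior 6.24). Genes passed edgeR's filter on low counts (minimum count 10, total 15), which left 19614, and p-values were adjusted by Benjamini-Hochberg with a threshold of 0.05. FT and TSF were tested by exact permutation within times (160000 arrangements); replicates measure the spread between pools of rosettes. The design was written for normalised values or counts, and since the deposited values are normalised the limma test was the main one. The limma fit was also tried on simulated counts with the same dispersion for every gene. Changes were placed only in genes with more reads than FLC or CDF5, so those runs do not cover low genes. Alternatives were edgeR 4.0.16 and DESeq2 1.42.0 on recovered reads, other scalings, pseudocounts and filters, single times or lines, a replicate block and leaving out libraries. Named genes were the members, CO, pathway list genes called between the lines (up to 4 a list), the 3 genes nearest to each member by profile, members left out, and JAZ4 as the check of the labels. Cell markers, GI and FKF1 are named outside this rule. Names and sequences came from RefSeq TAIR10.1, which matched 24297 of 24503 loci. Depth was 16832226 to 22644745 reads, and the floors of groups at 0 cover counting error only.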

Additional observations from a re-analysis of the deposited data

Results flagged for a closer look

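TEM2, which encodes a repressor of FT, had a line difference that depended on time by the F test of limma over the 4 times (adjusted p 0.0207). The log2 difference between jaz4-1 and Col-0 was -0.19 ± 0.32 at ZT0, 1.16 ± 0.32 at ZT6, 2.49 ± 0.32 at ZT12 and -0.17 ± 0.32 at ZT18 (SE). The test missed the threshold without Col-0 at ZT12 replicate 1 (adjusted p 0.0702), without both libraries with the fewest detected genes (0.0637) and without the 3 libraries lowest in shoot apex markers (0.0864).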

How the results depend on the processing

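Each of 13 other settings was run only for the results it applied to. Across these runs, all 164 counts of members called stayed within 1.5 times the value given. Of 340 values of the 34 called steps between times, 338 kept their direction and call. The exceptions were CDF5 for ZT6 against ZT0 in jaz4-1 (-1.80, adjusted p 0.107, without the 3 libraries lowest in shoot apex markers, a setting chosen after seeing the data) and SVP for ZT18 against ZT12 in jaz4-1 (adjusted p 0.0672 with that line alone). When each library was left out in turn, the members called ranged from 0 to 1 between the lines at ZT18, from 0 to 1 on average, and from 2 to 5 for ZT18 against ZT12 in jaz4-1. The average line difference turned its sign for SVP (0.02) without both libraries with the fewest detected genes and for CDF3 (-0.08) without the 3 libraries lowest in shoot apex markers, and ranged from -0.01 to 0.15 for CDF3 when single libraries were left out; none of these was called, and the cause was not tested. The labels give no shared batch for a replicate number, but same-number libraries of the lines deviated together more often than others (r over 0.1 in 7 of 12 pairs, against 2 of 24 other pairs). Every same-number pair passed 0.1 at ZT0 (0.157, 0.125 and 0.219), and not at the other times. The replicate block left each count of members called as it was, with 0 between the lines at every time, while TEM2 at ZT6 lost its call (adjusted p 0.0585). That block fits an effect of each replicate number shared over all times. It cannot take up pairing particular to a single time, which was not fitted. Genes called between the lines by DESeq2 and by limma were 364 and 181 (ZT0), 1154 and 578 (midday), 163 and 63 (ZT12), 54 and 27 (night), and 1662 and 918 (average). Few reads limit FT, TSF, CDF5 and FLC.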
